A study of Mus musculus with 26 samples.

Results

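The capacity of the liver to burn fatty acids was examined through 35 genes of fatty acid oxidation and its transcriptional control by PPARA. The genes were chosen by name for their known roles. All 35 were found among the 36883 gene names of the count table, and all 35 passed the filter on low counts that left 16892 genes for testing. By role they were 3 regulators, 5 genes of fatty acid activation and entry into mitochondria, 9 of mitochondrial beta-oxidation, 6 of peroxisomes, 2 of omega-oxidation, 4 acyl-CoA thioesterases, 1 ketone body enzyme and 5 secreted, storage or fatty acid binding proteins.

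As background, hepatocytes activate fatty acids to acyl-CoA, pass long chains into mitochondria on carnitine, and shorten them there by beta-oxidation, which feeds the respiratory chain and ketone body synthesis. Very long and branched chains are shortened first in peroxisomes, and cytochromes P450 of the CYP4A family oxidise the far end of the chain. PPARA is a nuclear receptor that fatty acids activate during fasting, and with its partner RXR it raises the transcription of genes at each of these steps.

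The samples were livers of Eu-MYC mice, in which a Myc transgene under the immunoglobulin heavy chain enhancer is active in B-lineage cells. Every animal, controls included, was of this strain. The animals had been housed under chronic jet lag lighting (CJL), given in the series title as 8 weeks, or under 12 hours of light and 12 hours of dark. There were 8 females and 6 males under 12:12 lighting and 8 females and 4 males under jet lag, 26 libraries in all, 1 from each numbered animal. Age, feeding and the time of day at collection are not stated in the labels. The p-values measure the spread between these animals.

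The libraries held from 45364552 to 50242014 counts. Levels are given as CPM, a gene's count over the library's total scaled to a common size. A count of 0 allows a level of up to 3 counts, which was 0.0661 CPM or less in each library and covers counting error only. Albumin (Alb) ranged from 100046 to 221242 CPM, as liver RNA does. Cd79a, which encodes a B cell receptor subunit, ranged from 1.28 to 2.95 CPM in 18 libraries and from 14.5 to 144 CPM in the other 8. The 8 were females 6 and 7 and males 3 and 5 under 12:12 lighting, and females 2, 5 and 6 and male 8 under jet lag. They are called Cd79a-high libraries here. They are samples set apart by a measured B cell gene and are no group of the study.

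Promoter sequences are shown for 5 genes on which the comparisons turn, as the RefSeq entries on GRCm38.p6 give them, from 250 bases before to 50 bases after the start. Of the 35 genes 28 had such an entry, and Acaa2, Decr1, Crat, Cyp4a10, Cyp4a14, Angptl4 and Vnn1 were not matched. Fabp1, Hadha and Acaa1b are shown because they were among the genes lower in Cd79a-high libraries, and Acot3 and Acot4 because they differed between the sexes. PPARA with RXR is known to bind a repeat of AGGTCA with 1 base between its copies. Searched on both strands, AGGTCANAGGTCA was in the entries of 0 of the 28 genes and in 0.0396% of 32851 promoter entries. The looser form AGGNCANAGGNCA was in 1 of the 28, Fabp1, and in 0.381% of all entries, and there it overlaps a match to the single copy. A single AGGTCA on either strand was in 8 of the 28 and in 16.3% of all entries. Capitals mark the looser repeat in Fabp1 and the single copy in Acot3 and Acot4, read as the reverse complement. Fabp1 also holds a further single copy after the marked repeat, left in lower case. The Hadha and Acaa1b sequences hold no match. These matches describe letters and no measured binding.
Fabp1, chr6:71199629-71199928, plus strand: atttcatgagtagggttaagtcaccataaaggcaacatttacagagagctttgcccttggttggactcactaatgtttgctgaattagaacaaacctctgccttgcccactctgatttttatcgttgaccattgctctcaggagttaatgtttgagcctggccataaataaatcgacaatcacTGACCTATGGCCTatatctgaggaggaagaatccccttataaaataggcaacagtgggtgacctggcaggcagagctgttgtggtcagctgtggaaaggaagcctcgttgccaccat
Hadha, chr5:30154931-30155230, minus strand: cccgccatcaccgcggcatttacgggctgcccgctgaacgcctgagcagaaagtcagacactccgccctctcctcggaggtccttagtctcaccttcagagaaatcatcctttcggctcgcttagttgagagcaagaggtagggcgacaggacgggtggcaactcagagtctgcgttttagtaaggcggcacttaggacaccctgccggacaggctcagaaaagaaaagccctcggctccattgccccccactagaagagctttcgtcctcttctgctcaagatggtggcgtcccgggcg
Acaa1b, chr9:119157044-119157343, minus strand: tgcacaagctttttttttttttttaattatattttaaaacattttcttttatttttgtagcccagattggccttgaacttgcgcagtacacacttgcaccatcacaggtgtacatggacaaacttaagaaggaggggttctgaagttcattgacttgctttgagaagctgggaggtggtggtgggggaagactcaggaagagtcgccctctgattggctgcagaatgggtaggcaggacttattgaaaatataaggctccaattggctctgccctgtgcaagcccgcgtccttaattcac
Acot3, chr12:84051894-84052193, plus strand: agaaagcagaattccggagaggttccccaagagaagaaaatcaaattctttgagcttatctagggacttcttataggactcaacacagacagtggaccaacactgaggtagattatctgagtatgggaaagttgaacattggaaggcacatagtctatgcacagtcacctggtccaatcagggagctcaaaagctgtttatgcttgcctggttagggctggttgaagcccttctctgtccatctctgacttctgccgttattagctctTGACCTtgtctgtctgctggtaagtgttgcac
Acot4, chr12:84038129-84038428, plus strand: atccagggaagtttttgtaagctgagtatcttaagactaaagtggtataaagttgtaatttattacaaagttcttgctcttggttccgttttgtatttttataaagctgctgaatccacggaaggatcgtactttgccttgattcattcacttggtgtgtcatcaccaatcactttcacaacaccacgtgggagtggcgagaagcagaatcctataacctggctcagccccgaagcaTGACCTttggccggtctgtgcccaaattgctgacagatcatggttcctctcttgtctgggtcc
The marked match in Fabp1 begins at position -67 from the start of its entry, that in Acot4 at -13 and that in Acot3 at 18. The Acot4 entry lies wholly inside the gene as annotated, which begins at 84037254. Its position is therefore counted from a later start and not from the annotated gene start. Hadha and Hadhb, which encode both subunits of the mitochondrial trifunctional protein, lie head to head on chromosome 5 with 272 bases between them. Acot1, Acot2, Acot3 and Acot4 lie side by side on chromosome 12, from 83987861 to 84060400.

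Most of the 35 genes were lower in the livers with more B cell RNA. Compared with the other 18 libraries, with sex and lighting held in the model, 28 of the 35 were lower in the 8 Cd79a-high libraries and 0 were higher at an adjusted p under 0.05 (edgeR's quasi-likelihood test, p-values adjusted over all 16892 genes). All 9 genes of mitochondrial beta-oxidation and all 6 peroxisomal genes fell, as did 4 of the 5 genes of activation and entry, 2 of the 3 regulators and the ketone body enzyme Bdh1. Over all genes tested 43.7% passed in this comparison, 20.2% lower and 23.4% higher, so a call by itself was common. The median log2 fold change was -0.62 over the 35 genes and -0.02 over all genes tested. In bulk tissue fewer hepatocytes and less RNA per hepatocyte cannot be told apart.

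**Figure D1:**
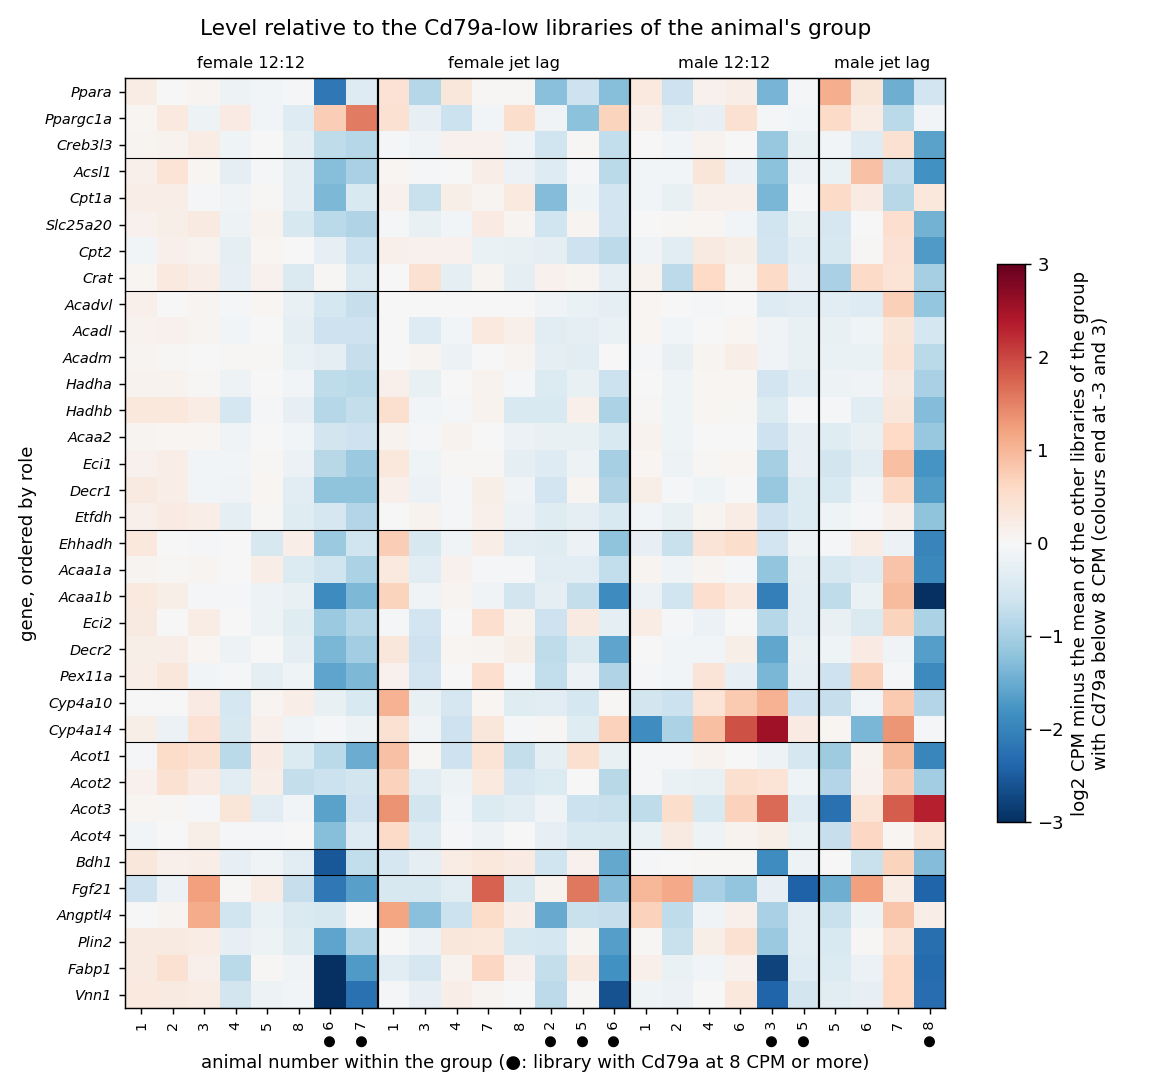
Log2 CPM of each of the 35 genes minus the mean of the other libraries of the group with Cd79a below 8 CPM, by library, with genes ordered by role and Cd79a-high libraries marked by a dot. The columns of females 6 and 7 and male 3 under 12:12 lighting and of female 6 and male 8 under jet lag are blue over most roles, and Ppargc1a, Cyp4a14 and Acot3 are exceptions in some of them.

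Among the regulators, Ppara ranged from 26.1 to 105 CPM with a median of 38.7 in the Cd79a-high libraries and from 20.4 to 113 CPM with a median of 96.5 in the others. The groups overlapped, because Ppara stood at 105 CPM in the Cd79a-high male 5 under 12:12 lighting and at 20.4 CPM in male 7 under jet lag, a library without high Cd79a. The log2 fold change of Ppara was -0.89 (SE 0.20, adjusted p = 0.00102). Creb3l3, which encodes a membrane-bound transcription factor that acts with PPARA on fasting genes, ranged from 114 to 271 CPM with a median of 176 in the Cd79a-high libraries and from 215 to 318 CPM with a median of 273 in the others. It fell by 0.70 on the log2 scale (adjusted p = 9.44e-05). Ppargc1a, a coactivator of PPARA, had a positive value, 0.32 (SE 0.20, adjusted p = 0.202), short of the threshold.

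Activation and carnitine entry were lower at each step from the acyl-CoA synthetase to the inner membrane. Acsl1, which joins long chain fatty acids to coenzyme A, had a log2 fold change of -0.82 (SE 0.17, adjusted p = 0.000287). Cpt1a, the rate-limiting outer membrane carnitine palmitoyltransferase, ranged from 138 to 379 CPM with a median of 245 in the Cd79a-high libraries and from 108 to 411 CPM with a median of 349.8 in the others. Its ranges overlapped over most of their width, and its log2 fold change was -0.53 (SE 0.17, adjusted p = 0.0129). Slc25a20, the carnitine-acylcarnitine carrier, fell by 0.63 on the log2 scale (adjusted p = 0.000164). Cpt2, the inner membrane transferase, ranged from 49.04 to 108 CPM with a median of 87.4 against 94.96 to 145 CPM with a median of 114, and it also fell by 0.63 (adjusted p = 0.000128). Crat, which moves acetyl groups on carnitine, was at -0.15 (SE 0.15, adjusted p = 0.454) and did not pass.

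The 9 genes of mitochondrial beta-oxidation had log2 fold changes from -0.86 to -0.34, a narrower span than that of all 35 genes. Hadha, the alpha subunit of the trifunctional protein, had the smallest p. It ranged from 262 to 388 CPM with a median of 301 in the Cd79a-high libraries and from 375 to 469 CPM with a median of 413 in the others, a log2 fold change of -0.60 (SE 0.08, adjusted p = 1.41e-06). The ranges met only at the upper end of the Cd79a-high libraries, where male 5 under 12:12 lighting (388 CPM) and female 5 under jet lag (378 CPM) lay. Hadhb, its beta subunit, was counted at 3.56 to 9.44 CPM only, far below Hadha, and the reason was not tested. Hadhb fell by 0.57 on the log2 scale (adjusted p = 0.00208).

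Etfdh, which passes electrons from the acyl-CoA dehydrogenases to ubiquinone, ranged from 173 to 305 CPM with a median of 248 in the Cd79a-high libraries and from 257 to 389.5 CPM with a median of 322 in the others, with a log2 fold change of -0.60 (SE 0.09, adjusted p = 1.23e-05). Decr1, a reductase needed for polyunsaturated chains, ranged from 66.2 to 167 CPM with a median of 86.2 against 136 to 203 CPM with a median of 164, with -0.86 (SE 0.15, adjusted p = 3.08e-05). Eci1, an isomerase for unsaturated chains, ranged from 47.2 to 114 CPM with a median of 70.8 against 98.02 to 182 CPM with a median of 114, with -0.79 (SE 0.15, adjusted p = 8.89e-05). In each of these genes the median of the Cd79a-high libraries lay below the lowest value of the others, and single Cd79a-high libraries lay inside their range. Acaa2, the mitochondrial thiolase that ends each round, ranged from 602 to 915 CPM with a median of 706 against 749 to 1278 CPM with a median of 920.3, a log2 fold change of -0.51 (SE 0.09, adjusted p = 8.51e-05). The acyl-CoA dehydrogenases for very long, long and medium chains (Acadvl, Acadl and Acadm) had the smallest decreases, with log2 fold changes of -0.46, -0.38 and -0.34.

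The peroxisomal genes had a median log2 fold change of -0.89. Decr2, the peroxisomal dienoyl-CoA reductase, ranged from 48.8 to 148 CPM with a median of 95.3 in the Cd79a-high libraries and from 108 to 217 CPM with a median of 172 in the others, and its log2 fold change was -1.03 (SE 0.15, adjusted p = 3.69e-06). Pex11a, a membrane protein that takes part in the division of peroxisomes and is a PPARA target, ranged from 9.57 to 34.6 CPM with a median of 14.8 against 18.1 to 46.1 CPM with a median of 27.3, with -1.02 (SE 0.17, adjusted p = 2.75e-05). Acaa1b, a peroxisomal thiolase, ranged from 66.8 to 561 CPM in the Cd79a-high libraries and from 449 to 1589 CPM in the others, and it fell furthest of the 6, by 1.36 on the log2 scale (adjusted p = 0.000789). Acaa1b shares 22.6% of its 100-base transcript windows with Acaa1a, so reads may have been split between the pair. Acaa1a itself was at -0.77, the bifunctional enzyme Ehhadh at -0.75 and the isomerase Eci2 at -0.60, all past the threshold.

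The omega-oxidation genes did not pass. Cyp4a14, a strongly PPARA-dependent gene in mouse liver, ranged from 350.3 to 1740.3 CPM with a median of 833 in the Cd79a-high libraries and from 93.5 to 1336 CPM with a median of 719 in the others. The highest value of all, 1740 CPM in male 3 under 12:12 lighting, and the second highest, 1700.4 CPM in female 6 under jet lag, were both in Cd79a-high libraries. Neither Cyp4a14, at 0.37 (SE 0.31, adjusted p = 0.344), nor Cyp4a10, at -0.23 (SE 0.20, adjusted p = 0.373), passed the threshold. In the same 2 livers Fabp1 and Vnn1, also known PPARA targets, stood at 826 and 11.1 CPM in the male and at 948 and 13.2 CPM in the female, the lowest of their groups.

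The thioesterases, which release free fatty acids from acyl-CoA, did not all pass. Acot1, the cytosolic enzyme, and Acot2, the mitochondrial one, fell, with log2 fold changes of -0.62 and -0.42. The peroxisomal Acot3 and Acot4 were at 0.17 (SE 0.36, adjusted p = 0.736) and -0.28 (SE 0.13, adjusted p = 0.0795). Within each sex neither Acot1 nor Acot2 passed, with adjusted p-values of 0.209 and 0.0724 in females and 0.101 and 0.516 in males. Acot1 shares 21.5% and Acot2 17.1% of their 100-base windows with family members, against 4.27% for Acot3 and 0.35% for Acot4. Acot3 and Acot4 both overlap a predicted gene, Gm40474, in the RefSeq annotation.

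Bdh1, the mitochondrial enzyme that makes beta-hydroxybutyrate, ranged from 49.6 to 261 CPM with a median of 124 in the Cd79a-high libraries and from 135 to 304 CPM with a median of 223 in the others, with a log2 fold change of -0.92 (SE 0.22, adjusted p = 0.00162). Fabp1, the liver fatty acid binding protein, ranged from 392 to 4329 CPM against 2191 to 5373 CPM, a log2 fold change of -1.34 (SE 0.31, adjusted p = 0.00116). Vnn1, a pantetheinase, had the largest decrease of the 35 genes. It ranged from 6.88 to 84.2 CPM in the Cd79a-high libraries and from 32.4 to 94.6 CPM in the others, with -1.54 (SE 0.32, adjusted p = 0.000383), a fitted level 0.344 times that of the other libraries. Plin2, a lipid droplet coat protein, fell by 0.96 on the log2 scale and Angptl4, a secreted inhibitor of lipoprotein lipase, by 0.57 (adjusted p = 0.000339 and 0.0443). Fgf21, the fasting hormone of the liver, was at or below 0.904 CPM in every library and at 0 in the Cd79a-high female 6 under 12:12 lighting. Its log2 fold change of -0.97 (SE 0.55, adjusted p = 0.161) did not pass.

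**Figure D2:**
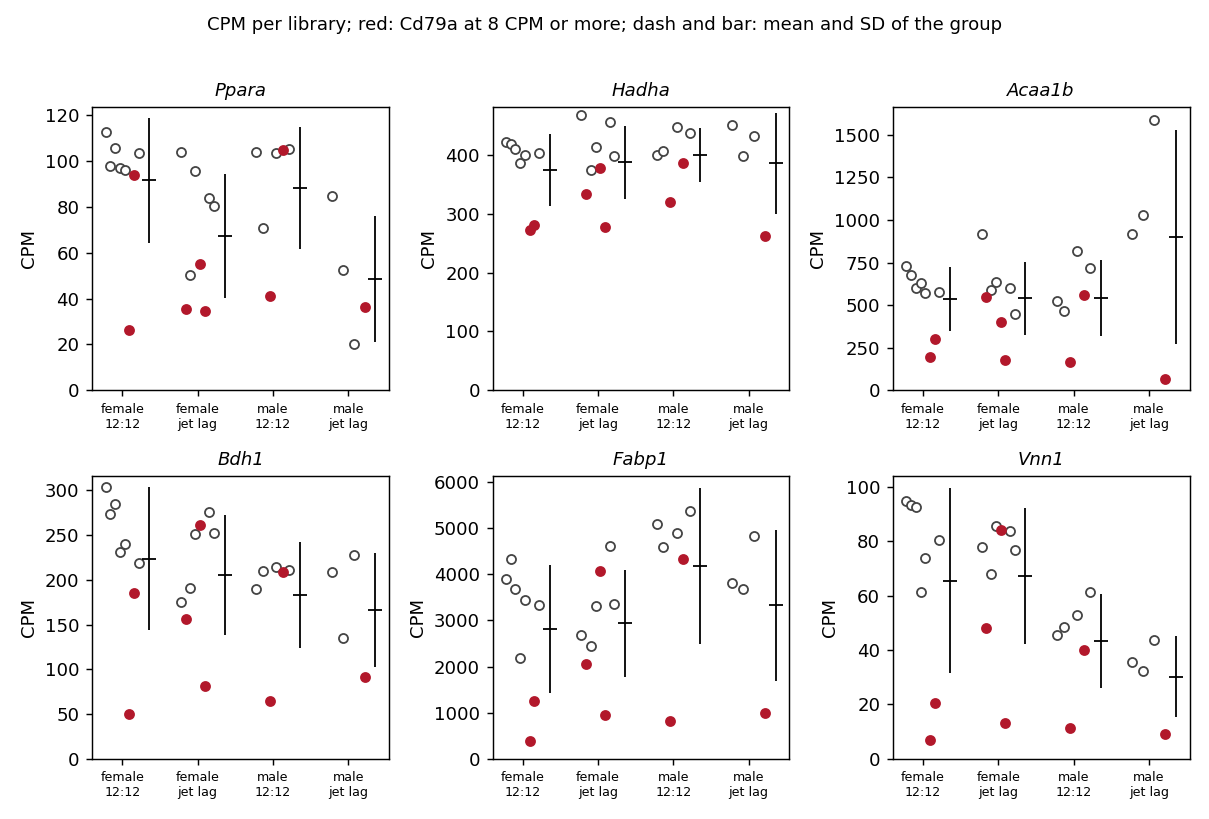
CPM of Ppara, Hadha, Acaa1b, Bdh1, Fabp1 and Vnn1 in each library by group, with Cd79a-high libraries in red and the mean and SD of all libraries of a group as a dash and bar. The lowest Vnn1 values, from 6.88 to 20.7 CPM, are all red. Of the other 3 red points, the one at 84.2 CPM lies among the open ones of its group. Those at 48.0 and 40.1 CPM lie below the open ones of their groups.

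The Cd79a-high libraries differed among themselves. Relative to the mean log2 CPM of the libraries of its own group with Cd79a below 8 CPM, the median log2 ratio over the 35 genes was -1.30 in male 8 under jet lag, -0.82 and -0.74 in females 6 and 7 under 12:12 lighting, -0.74 in female 6 under jet lag and -0.62 in male 3 under 12:12 lighting. It was -0.38 in female 2 under jet lag, -0.26 in male 5 under 12:12 lighting and -0.18 in female 5 under jet lag. The 3 libraries with the most Cd79a, male 8 under jet lag at 144 CPM and females 6 and 7 under 12:12 lighting at 105 and 66.1 CPM, were among the 4 lowest of the 8. The 2 with the least, female 2 under jet lag at 14.5 CPM and male 5 under 12:12 lighting at 26.2 CPM, were among the 3 highest. Female 5 under jet lag, the highest, had 62.7 CPM of Cd79a, and female 6 of the same group had 31.4 CPM. Male 8 under jet lag was the lowest of its group in 28 of the 35 genes, female 6 under jet lag in 24, male 3 under 12:12 lighting in 23 and female 6 under 12:12 lighting in 22.

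Other cell type genes moved with this split, and their part in the result was not tested. Of 13 B-lineage markers 12 were higher in the Cd79a-high libraries, with a summed level of 113 to 1111 CPM against 16.4 to 43.6 CPM. Cd79a, which defined the split, is one of the 13, so the split itself set a part of that count and of that sum. All 5 proliferation genes were higher, with a summed level of 39.6 to 580.1 CPM against 6.88 to 17.7 CPM. Of 5 erythroid genes 4 were higher, with a summed level of 764 to 8391 CPM against 558 to 3359.6 CPM. Of 13 hepatocyte markers 4 were lower and 1, Alb, was higher, with a median log2 fold change of -0.16, and their summed level was 194583 to 285754 CPM against 166283 to 216683 CPM. Alb alone, at 128931 to 221242 CPM in the Cd79a-high libraries, made up most of that sum, so the sum does not describe the other markers. Summed adipocyte markers were at most 0.121 CPM and kidney markers at most 2.59 CPM in the Cd79a-high libraries, where the adipocyte genes Lep and Retn and the kidney gene Aqp2 were at 0. Summed heart and muscle markers were at most 1.46 CPM there and 2.23 CPM in the others, and 0 of the 3 tested passed. When libraries were scaled to the 13 hepatocyte markers instead of by TMM, 24 of the 35 genes were lower and 0 higher, where 8.95% of all genes were lower and 31.4% higher, 40.3% in all. That scaling moved the median of all genes from -0.02 to 0.14 and the share of calls that were higher from 53.7% to 77.8%, and the median of the 35 genes was then -0.46. Cpt1a, Acot1, Acot2 and Angptl4 no longer passed, and the 9 mitochondrial and 6 peroxisomal genes all did.

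**Figure D3:**
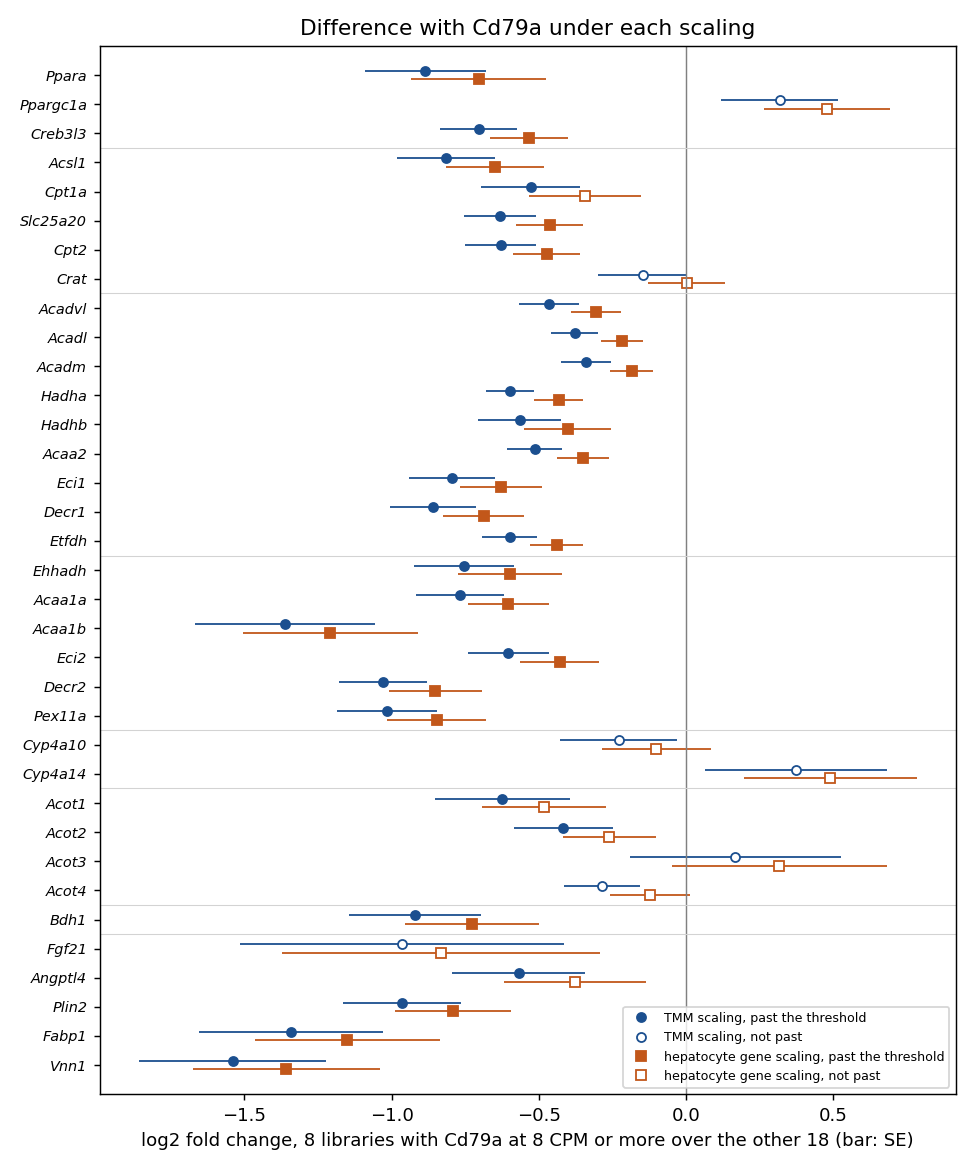
Log2 fold change with SE of each of the 35 genes, 8 Cd79a-high libraries over the other 18, under TMM scaling (circles) and hepatocyte gene scaling (squares), with filled symbols past an adjusted p of 0.05. Filled symbols all lie left of 0, and Ppargc1a, Cyp4a14 and Acot3 lie right of 0 with open symbols under both scalings, as Crat does under hepatocyte gene scaling.

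Leaving out each library in turn gave from 24 to 29 called genes. Cpt1a was lost without female 6 under 12:12 lighting (adjusted p = 0.0530), Acot1 in 4, Angptl4 in 13 and Acot2 in 15 of the 26 fits, and the other 24 passed in every fit.

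Within the sexes, 26 of the 35 genes were lower and 0 higher in the 5 Cd79a-high females than in the other 11, where 29.5% of all genes passed, 11.2% lower and 18.3% higher. In the 3 Cd79a-high males against the other 7, 20 were lower and 1, Acot3, was higher, where 28.7% of all genes passed, 11.8% lower and 16.9% higher. The same 20 genes were lower in both sexes, and 31 of the 35 had negative log2 fold changes in both. Every Cd79a-high female lay below every other female in 0 of the 35 genes and in 1.15% of all genes. In males 7 genes had it, Acadvl, Hadha, Acaa2, Eci1, Decr1, Etfdh and Acaa1a, against 1.65% of all genes.

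The log2 fold changes of Acot3, Acot4 and Ppargc1a differed in sign between the sexes. Ppargc1a was at 0.55 (SE 0.24, adjusted p = 0.0896, edgeR) in females and -0.10 (SE 0.32, adjusted p = 0.850) in males and passed in neither. In Cd79a-high males Acot3 stood at 87.2, 20.2 and 35.8 CPM, and the other males ranged from 2.32 to 33.7 CPM. In Cd79a-high females it stood at 76.8, 161, 129, 89.3 and 86.7 CPM, and the other females ranged from 96.6 to 284 CPM. The male values overlap only at male 5, and of the 5 Cd79a-high females 2 lie inside the range of the others and 3 below it. The log2 fold change of Acot3 was 1.34 (SE 0.42, adjusted p = 0.0204) in males and -0.77 (SE 0.36, adjusted p = 0.113) in females. That of Acot4 was 0.13 (SE 0.18, adjusted p = 0.636) in males and -0.56 (SE 0.15, adjusted p = 0.00478) in females. The test of the difference itself, female minus male, gave -2.11 (SE 0.56, adjusted p = 0.184) for Acot3 and -0.69 (SE 0.23, adjusted p = 0.439) for Acot4. Neither passed with edgeR, where 0 of the 35 genes passed, these 2 had an unadjusted p under 0.05 and 0.213% of all genes passed. DESeq2 called 1 of the 35, Acot3, in that test (adjusted p = 0.0159), and 0.545% of all genes. This test was added after the values had been seen.

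Of 43 other genes of the pathway, 26 were lower and 3 higher in the Cd79a-high libraries, where 20.2% of all genes were lower and 23.4% higher. Among those with the smallest p, Abcd3, a peroxisomal fatty acid transporter, had a log2 fold change of -1.13, the carnitine transporter Slc22a5 one of -0.74 and the short chain dehydrogenase Hadh one of -0.63. Ucp2, a mitochondrial carrier that lymphoid cells also express, rose by 2.14 on the log2 scale.

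Between the sexes, Acot3 and Acot4 were higher in females under both lightings, and they were the only ones of the 35 genes past the threshold with edgeR and TMM scaling. Ppargc1a, at 0.93 (SE 0.27, adjusted p = 0.0571) under 12:12 lighting, passed there under hepatocyte gene scaling (adjusted p = 0.0484) and with DESeq2 (adjusted p = 0.0207). Its highest levels there were 52.0 and 27.8 CPM, in the Cd79a-high females 7 and 6. Without the Cd79a-high libraries it was at 0.51 (SE 0.20, adjusted p = 0.128, edgeR) and did not pass. Under 12:12 lighting 2.01% of all genes were higher in females and 1.67% lower, 3.68% in all. Under jet lag 0.87% were higher and 1.05% lower, 1.92% in all. The median log2 fold change of the 35 genes, female over male, was -0.03 under 12:12 lighting and -0.01 under jet lag.

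Acot3, which encodes a peroxisomal thioesterase for long chains in mice, ranged from 76.8 to 262 CPM with a median of 202 in females and from 14.9 to 87.2 CPM with a median of 26.01 in males under 12:12 lighting. The sexes overlapped there only through female 6 and male 3, both Cd79a-high. Under jet lag the 8 females ranged from 86.7 to 284 CPM with a median of 108 and the 4 males stood at 2.32, 6.90, 12.2 and 35.8 CPM, without overlap. The log2 fold change, female over male, was 2.36 (SE 0.47, adjusted p = 0.00336) under 12:12 lighting and 3.07 (SE 0.58, adjusted p = 0.00341) under jet lag.

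Acot4, a peroxisomal thioesterase that acts on dicarboxylic acyl-CoA esters, ranged from 31.2 to 73.6 CPM with a median of 64.6 in females and from 26.8 to 40.5 CPM with a median of 32.5 in males under 12:12 lighting. Female 6, Cd79a-high, was the only female inside the male range. Under jet lag the females ranged from 39.1 to 73.2 CPM with a median of 47.7 and the males stood at 11.7, 18.8, 13.2 and 22.9 CPM, without overlap. The log2 fold change was 0.78 (SE 0.18, adjusted p = 0.0123) under 12:12 lighting and 1.40 (SE 0.22, adjusted p = 0.000346) under jet lag. Both genes passed whichever of the 26 libraries was left out, and also under hepatocyte gene scaling, which moved the share of all calls higher in females from 54.7% to 72.6% under 12:12 lighting and from 45.4% to 63.0% under jet lag. Their neighbour Acot2 was at 0.63 (SE 0.23, adjusted p = 0.142) and 0.42 (SE 0.26, adjusted p = 0.463), and Acot1 at 0.02 (SE 0.31, adjusted p = 0.987) and 0.03 (SE 0.35, adjusted p = 0.977).

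**Figure D4:**
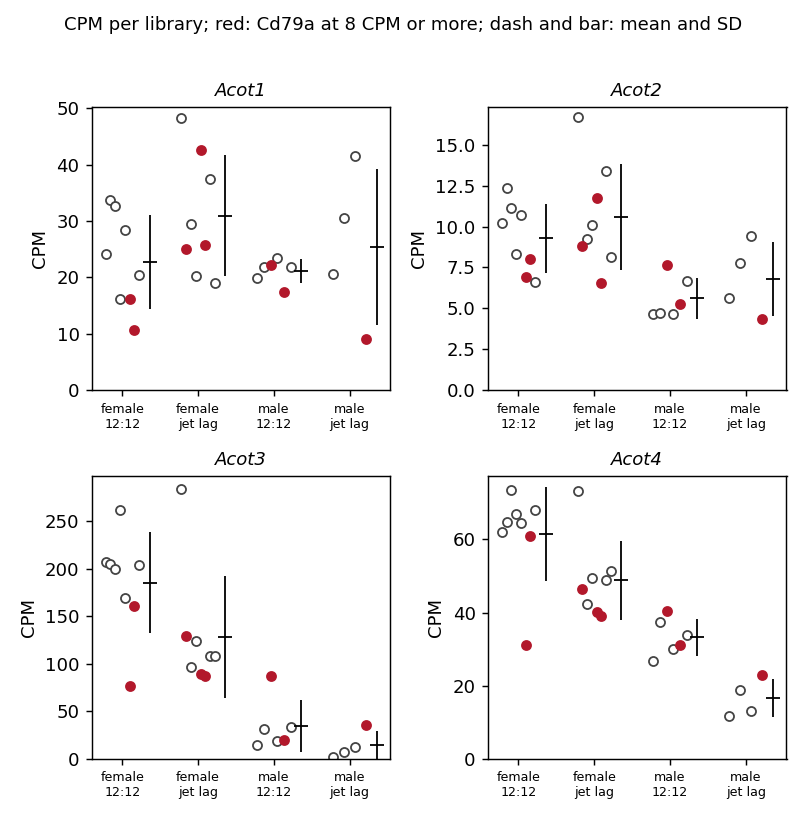
CPM of Acot1, Acot2, Acot3 and Acot4 in each library by group, with Cd79a-high libraries in red and the mean and SD of all libraries of a group as a dash and bar. Acot3 and Acot4 are higher in females than in males under both lightings, and Acot4 in the 4 jet lag males, from 11.7 to 22.9 CPM, lies below all 6 males under 12:12 lighting.

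Without the 8 Cd79a-high libraries more genes passed between the sexes. Under 12:12 lighting 6 of the 35 did, 4 higher in females (Acot2, Acot3, Acot4 and Vnn1) and 2 lower (Fabp1 and Pex11a), against 8.26% of all genes. Vnn1 was then at 0.56 (SE 0.14, adjusted p = 0.0129) and Fabp1 at -0.63 (SE 0.18, adjusted p = 0.0337). Under jet lag 10 passed, against 11.6% of all genes. Acot3, Acot4, Cpt1a and Vnn1 were higher in females, and Acaa1a, Acaa1b, Acaa2, Acadvl, Creb3l3 and Decr1 were lower. Acaa1b was at -1.08 (SE 0.22, adjusted p = 0.0025) and Vnn1 at 0.90 (SE 0.16, adjusted p = 0.000815). Of the 3 jet lag males left, male 7 was the highest of its group in 20 of the 35 genes. Leaving out male 8 under jet lag alone gave 4 calls under jet lag, Acot3, Acot4, Acaa1a and Acaa2. The share of all genes called in that fit is not given here, so the 4 calls cannot be set against it.

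Among the 43 other genes of the pathway, 1 was higher and 3 were lower in females under each lighting. Of all genes 3.68% passed under 12:12 lighting and 1.92% under jet lag. Cyp4a12a, a male-predominant omega-hydroxylase of mouse liver, was at most 2.00 CPM in the 16 females and ranged from 2.46 to 779 CPM in the 10 males. Cyp4a12b, its close copy, was at most 0.485 CPM in females and ranged from 1.36 to 291 CPM in males. The copies share 35.8% of the windows of Cyp4a12a, so their counts are uncertain singly. Scp2, which encodes a peroxisomal thiolase and sterol carrier, had a log2 fold change, female over male, of -2.20 (SE 0.29, adjusted p = 2.89e-05) under 12:12 lighting and -2.08 (SE 0.32, adjusted p = 0.000316) under jet lag. Abcd2, a peroxisomal transporter of very long chains, was at 1.44 (SE 0.30, adjusted p = 0.00612) under 12:12 lighting and 1.71 (SE 0.36, adjusted p = 0.00852) under jet lag.

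Jet lag lighting went with little difference in these genes. Over both sexes, 12 libraries under jet lag against 14 under 12:12 lighting, 1 of the 35 genes passed the threshold, Acot4, which was lower, where 0.781% of all genes passed, 0.337% lower and 0.444% higher. The median log2 fold change, jet lag over 12:12 lighting, was -0.02 over the 35 genes and 0.02 over all genes. The 9 genes of mitochondrial beta-oxidation lay between -0.11 and 0.13 and the 6 peroxisomal genes between -0.23 and 0.29, none of them past the threshold.

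The log2 fold change of Acot4 was -0.60 (SE 0.14, adjusted p = 0.0411), from 61.5 CPM ± 12.8 (SD, n = 8) to 48.9 CPM ± 10.8 (SD, n = 8) in females and from 33.3 CPM ± 5.05 (SD, n = 6) to 16.7 CPM ± 5.17 (SD, n = 4) in males. The 4 jet lag males lay below all 6 males under 12:12 lighting, and the female ranges overlapped. The call did not hold in 19 of the 26 fits that left out 1 library, where the adjusted p reached 0.0896 without male 7 under jet lag. It held in the fits without female 6 or 7 or male 3 under 12:12 lighting and without female 1, 4 or 8 or male 8 under jet lag, and the log2 fold change ranged from -0.67 to -0.52 over the 26. Under hepatocyte gene scaling, where 1.07% of all genes passed, the adjusted p was 0.0679, and the share of all calls that were higher under jet lag moved from 56.8% to 74.0%. Without the Cd79a-high libraries, where 2.32% of all genes passed, Acot4 was at -0.67 (SE 0.13, adjusted p = 0.00988). In the authors' deposited table, turned to jet lag over 12:12 lighting, Acot4 was at -0.42 with an adjusted p of 0.686, and 0 of the 35 genes passed there.

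**Figure D5:**
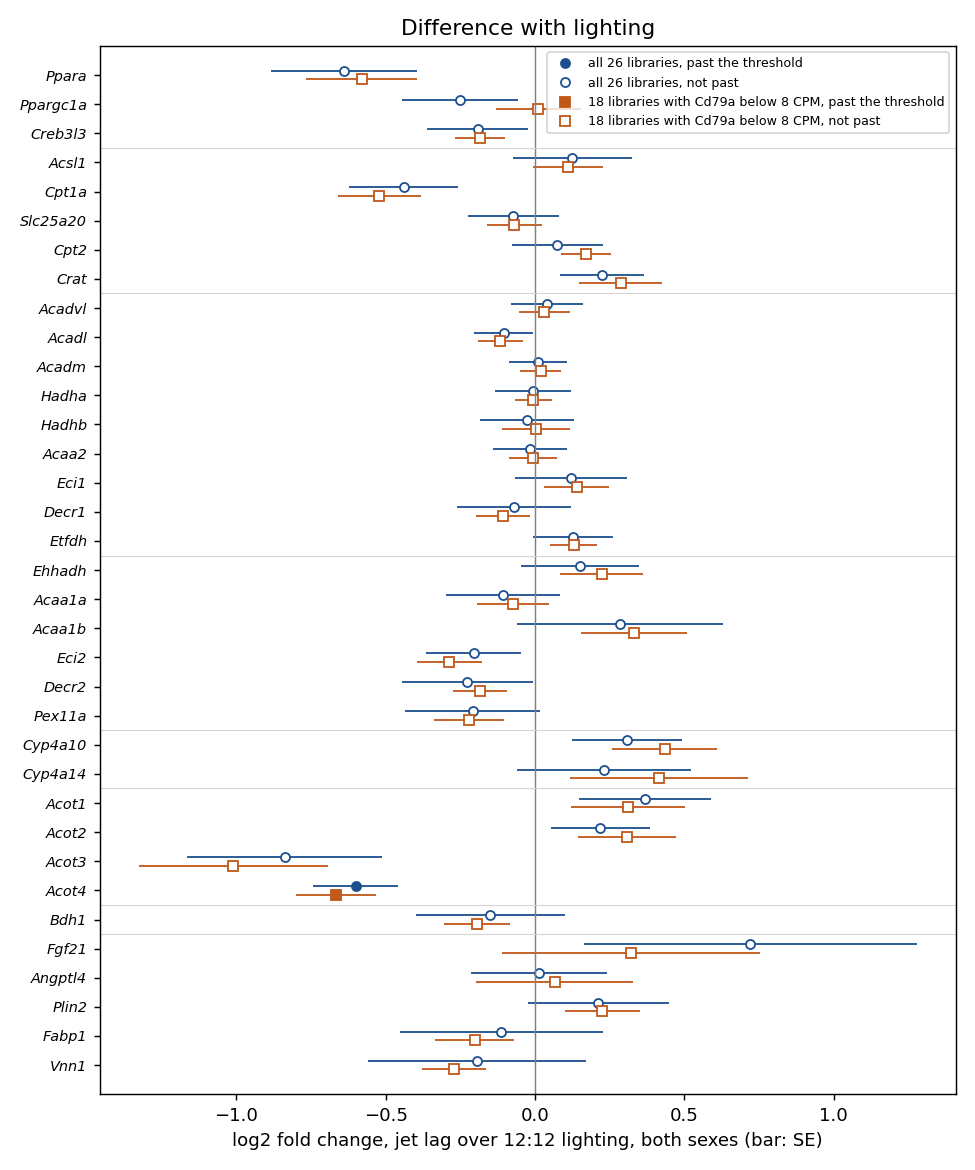
Log2 fold change with SE of each of the 35 genes, jet lag over 12:12 lighting over both sexes, with all 26 libraries (circles) and with the 18 libraries below 8 CPM of Cd79a (squares), and filled symbols past an adjusted p of 0.05. Only Acot4 is filled, at -0.60 and -0.67, and the mitochondrial genes from Acadvl to Etfdh lie near 0.

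Ppara and Cpt1a had negative log2 fold changes with jet lag that did not pass. Ppara ranged from 26.1 to 113 CPM with a median of 97.4 in females under 12:12 lighting and from 34.4 to 104 CPM with a median of 67.7 under jet lag. In males it ranged from 41.1 to 106 CPM with a median of 104 under 12:12 lighting and stood at 84.7, 52.4, 20.4 and 36.3 CPM under jet lag. The ranges overlapped in both sexes, and the log2 fold change was -0.64 (SE 0.24, adjusted p = 0.374). Cpt1a ranged from 166 to 411 CPM with a median of 362 and from 138 to 366 CPM with a median of 327 in females. In males it ranged from 154 to 389.9 CPM with a median of 349.9 under 12:12 lighting and stood at 263, 195, 108 and 266 CPM under jet lag, and its log2 fold change was -0.44 (SE 0.18, adjusted p = 0.458). The low Cpt1a value of male 7 came from a library in which 20 of the 35 genes were the highest of their group. Without the Cd79a-high libraries, Cpt1a over both sexes was at -0.52 (SE 0.14, adjusted p = 0.0503, edgeR), just short of the threshold. Ppara was then at -0.58 (SE 0.19, adjusted p = 0.119).

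Cyp4a14 under jet lag ranged from 714 to 1700.4 CPM with a median of 1030.1 in females, against 601 to 982 CPM with a median of 827 under 12:12 lighting. The jet lag males stood at 508, 229, 724 and 517 CPM, inside the male range under 12:12 lighting, which ran from 93.5 to 1740 CPM. Its log2 fold change with lighting was 0.23 (SE 0.29, adjusted p = 0.999). Bdh1 ranged from 49.6 to 304 CPM with a median of 236 in females under 12:12 lighting and from 80.9 to 276 CPM with a median of 221 under jet lag, with -0.15 (SE 0.25, adjusted p = 0.999) over both sexes. Fgf21 ranged from 0 to 0.325 CPM in females under 12:12 lighting and from 0.0813 to 0.904 CPM under jet lag. Its log2 fold change in females was 1.48 (SE 0.65, adjusted p = 0.984), at counts close to the detection limit.

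Within females 0 of the 35 genes passed with edgeR, where 0% of all genes did, 2 had an unadjusted p under 0.05, and the calls of DESeq2 were 0 of the 35 and 0.326% of all genes. Within males 0 passed with edgeR, where 0.0118% of all genes did, 4 had an unadjusted p under 0.05 and DESeq2 called 1, Acot4 (adjusted p = 0.00782), and 0.556% of all genes. With edgeR, Acot4 in males was at -0.99 (SE 0.22, adjusted p = 0.116) and Acot3 at -1.29 (SE 0.54, adjusted p = 0.463). Acot4 passed in males when female 6 under 12:12 lighting (adjusted p = 0.0291) or male 8 under jet lag (adjusted p = 0.0274) was left out. Without the 8 Cd79a-high libraries 3 genes passed in males, against 1.33% of all genes, in 3 jet lag and 4 other males. Acot4 was at -1.12 (SE 0.18, adjusted p = 0.00273), Cpt1a at -0.94 (SE 0.20, adjusted p = 0.0186) and Acaa1b at 0.92 (SE 0.23, adjusted p = 0.0489). The difference between the sexes in the lighting response passed for 0 of the 35 genes and 0% of all genes with edgeR, with 1 unadjusted p under 0.05 and 0 calls by DESeq2, and for Acot4 it was 0.62 (SE 0.27, adjusted p = 0.814).

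Of the 43 other genes of the pathway 0 passed with lighting over both sexes with edgeR, where 0.781% of all genes did, and 8 had an unadjusted p under 0.05. Pdk4, a kinase that shuts off pyruvate dehydrogenase and is a PPARA target, ranged from 1.25 to 2.60 CPM with a median of 1.93 in females under 12:12 lighting and from 1.96 to 35.5 CPM with a median of 4.15 under jet lag, with females 1, 2 and 3 at 35.5, 11.5 and 14.6 CPM. In males Pdk4 ranged from 0.406 to 5.78 CPM under 12:12 lighting and stood at 1.80, 9.42, 5.76 and 2.31 CPM under jet lag, with overlap. Its log2 fold change over both sexes was 1.75 (SE 0.48, adjusted p = 0.0959) with edgeR, and its adjusted p was 0.00326 with DESeq2 and 0.00692 in the authors' deposited table. Without the Cd79a-high libraries it was 2.64 (SE 0.71, adjusted p = 0.255) in females and 1.04 (SE 0.87, adjusted p = 0.573) in males with edgeR.

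To see how the genes varied together between animals of a group, each was fitted on the log2 CPM of Cyp4a14 with the 4 group means in the model. With edgeR 0 of the other 34 genes passed, where 0% of all genes did, and 2 had an unadjusted p under 0.05. Cyp4a10, its neighbour in the CYP4A cluster on chromosome 4, had a slope of 0.44 (SE 0.09, adjusted p = 0.133) on the log2 scale per log2 unit of Cyp4a14, and Acot3 a slope of 0.44 (SE 0.19, adjusted p = 0.999). DESeq2 called 1 of the 34, Cyp4a10 (adjusted p = 0.0097), and 0.107% of all genes. Without male 8 under jet lag edgeR called Cyp4a10 too (adjusted p = 0.0211). The slope of Cpt1a was -0.20 and that of Acsl1 -0.26, neither past the threshold. Without the 8 Cd79a-high libraries they were -0.0035 and -0.10, and the median slope over the genes moved from -0.04 to 0.09. Cyp4a10 shares 12.2% of its 100-base windows with family members, and Cyp4a14 shares none.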

How the data were processed

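The raw table the authors deposited gives expected counts per gene and library that were not normalized. The value 0.015 filled 45.8% of cells and was read as 0. Another 1.44% of cells differed from a whole number by more than 1e-06 and were rounded. The 36930 lines held 36883 names, and lines with the same name were summed. STAR, DESeq2 and the mm10 build are named without versions in the submitters' processing notes, and neither labels nor headers name the counting tool, annotation or strand setting, so overlapping genes (16 of the 35) are uncertain. A table deposited by the authors of log2 fold changes with standard errors and raw and adjusted p-values was used only beside the results computed here. Its log2 values had the opposite sign to jet lag over 12:12 lighting in 93.9% of 16871 shared genes.

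CPM is the count over the library's column sum, scaled to a common size. Genes were kept by filterByExpr (count minimum of 10), scaled by TMM and tested with quasi-likelihood F tests in edgeR 4.0.16 (R 4.3.3), with p-values adjusted over all genes by Benjamini and Hochberg and a threshold of 0.05. Lighting over both sexes used an additive model with sex, the other comparisons a model of the 4 group means over all 26 libraries, and the Cd79a comparison added an indicator of Cd79a at 8 CPM or more. The SE is the size of the log2 fold change over the square root of F. Log2 CPM used TMM-scaled library sizes and a prior count of 2. Alternatives were DESeq2 1.42.0, its size factors, scaling to 13 hepatocyte genes, no filter, leaving out each library, leaving out the Cd79a-high libraries, a Cd79a covariate, a replicate block, only the groups compared, other Cd79a limits and, added after seeing the data, the Cd79a comparison within each sex and its difference. The procedure was tested on simulated data in which few genes were changed and each gene was drawn independently. That does not show how it behaves where many genes shift together, as in the Cd79a comparison. Levels over the libraries, mostly as lowest, median and highest value, are given for the 10 past-threshold genes of smallest p and for Ppara, Cpt1a, Cyp4a14, Fgf21 and Bdh1, and also for Acot3, chosen after its values were seen. Of other pathway genes Pdk4 and up to 4 with the smallest p are named, and some genes that this rule also names are not reported here. The 35 genes, the lists and the tests were chosen with earlier results of these data known. Shared windows came from GENCODE M21 transcripts and gene positions from RefSeq on GRCm38.p6.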

Additional observations from a re-analysis of the deposited data

Results flagged for a closer look

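A value stood apart from the rest of its group in 26 of 140 combinations of gene and group. The measure was the gap to its nearest neighbour relative to the group's range (Dixon's test at 95%). It was taken on log2 CPM after TMM scaling, while the levels given below are CPM without that scaling. Chance gives about 1 in 20 for a single combination. The combinations share the same libraries and are not independent, so the count is no test against chance. Of the 26 values 23 were in Cd79a-high libraries, and all 23 were low. In female 6 under 12:12 lighting the low values were Ppara at 26.1, Cpt1a at 166, Acot4 at 31.2 and Bdh1 at 49.6 CPM. In female 7 under 12:12 lighting the low values were Cpt2 at 81.9 and Acadm at 180.4 CPM. In female 6 under jet lag the low values were Plin2 at 129 and Vnn1 at 13.2 CPM. In male 3 under 12:12 lighting the low values were Creb3l3 at 143, Acsl1 at 329.8, Cpt1a at 154, Hadhb at 5.42, Eci1 at 58.9, Acaa1a at 91.7, Acaa1b at 168, Decr2 at 58.5, Pex11a at 15.96, Bdh1 at 64.3, Fabp1 at 826 and Vnn1 at 11.1 CPM. In male 8 under jet lag the low values were Etfdh at 173, Ehhadh at 119 and Decr2 at 48.8 CPM. The other 3 were high, in libraries with Cd79a below 8 CPM. Cyp4a10 was high in female 1 under jet lag, at 1696 CPM. Acot3 was high in female 1 under jet lag, at 284 CPM. Angptl4 was high in female 3 under 12:12 lighting, at 74.4 CPM. The part of B cell RNA in these values was not tested.

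The difference with Cd79a was not the same in females and males for 1 gene of the pathway outside the 35, the peroxisomal transporter Abcd2. The test of female minus male gave -1.86 (SE 0.29, adjusted p = 0.00172) on the log2 scale (edgeR). In males Abcd2 stood at 48.1, 34.8 and 57.8 CPM in the Cd79a-high libraries and ranged from 11.3 to 33.1 CPM in the others. In females it ranged from 37.1 to 85.2 CPM in the Cd79a-high libraries and from 72.8 to 119 CPM in the others.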

How the results depend on the processing

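Of 10256 refits of single genes 0 changed the sign of a called value, 76 lost a call and 37 gained one. The count of Cd79a calls stayed within 1.5 times 28 under every alternative run, from 24 to 29 over the fits that left out 1 library. A Cd79a limit of 4 CPM makes the same split of the libraries, so that alternative could not change the count. A limit of 16 CPM gave 25. For lighting over both sexes the count was 0 under hepatocyte gene scaling, without the filter and with the replicate block, and 0 to 1 when 1 library was left out. The numbers of the animals do not pair them (correlations of same-numbered animals ran from -0.38 to 0.60), and with the replicate block the counts within females, within males and for the difference between the sexes were 0 too. For lighting in males the count was 1 with DESeq2, 1 with the Cd79a covariate, 3 without the Cd79a-high libraries and 0 to 1 when 1 library was left out. For lighting in females and for its difference between the sexes leaving out 1 library gave 0 each time. Between the sexes the counts without the Cd79a-high libraries were 6 under 12:12 lighting and 10 under jet lag, and leaving out 1 library gave 2 to 3 and 2 to 4. The slope on Cyp4a14 had 1 call with DESeq2 and 0 to 1 when 1 library was left out, and the female minus male difference with Cd79a had 1 call with DESeq2 and 0 to 1, the 1 without male 5 under 12:12 lighting. The cause was not tested. With 4 males under jet lag, 1 of them Cd79a-high, and with 3 Cd79a-high males in all, values in males rest on few animals.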

Other observations

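Genes of the pathway that differed between the sexes had values apart from the rest in some Cd79a-high males. Cyp4a12a stood at 6.79 and 2.46 CPM in male 3 under 12:12 lighting and male 8 under jet lag, and at 250.1 CPM in male 5 under 12:12 lighting, while the other 7 males ranged from 288 to 779 CPM. Scp2 stood at 655, 462 and 1695 CPM in the same 3 males, and in the other 7 from 1867 to 2496 CPM. In the 16 females Scp2 ranged from 331 to 745 CPM. Cyp4a14 was at 1740.3 CPM in male 3, a value above every female.

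In the 18 libraries with Cd79a below 8 CPM, the spread between animals was wider under jet lag for many of the 35 genes. Relative to their group means, the SD of log2 CPM in 8 jet lag libraries over that in 10 libraries under 12:12 lighting had a median of 1.58 over the 35 genes, with 31 of 35 (88.6%) above 1, and of 1.25 over all genes, with 67.3% above 1. Ppara had an SD of 0.61 against 0.21, Acot3 0.94 against 0.36, Cpt1a 0.38 against 0.15 and Eci1 0.34 against 0.10. Cyp4a14 went the other way, with 0.59 against 0.82. These are descriptions of few animals and were not tested.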
